A study of Homo sapiens with 21 samples.

Results

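The collagen genes were followed in 2 human cancer cell lines under low oxygen and after changes to METTL4, an enzyme studied as a methyltransferase that places N6-methyladenine. A gene was taken as a member when its symbol was COL, a number, A and a number, from type I to type XXVIII, and when it had a row in at least 1 of 4 tables of normalised expression. The annotation holds 44 such genes, and 32 of them had a row, out of 20970 genes with a row in any table. The 12 without a row were COL2A1, COL6A6, COL9A1, COL10A1, COL11A1, COL13A1, COL19A1, COL20A1, COL21A1, COL22A1, COL23A1 and COL25A1. The members were read as 9 classes: 9 of 11 fibrillar chains had a row, as did 6 of 6 basement membrane (type IV) chains, 4 of 5 type VI chains, the anchoring fibril chain COL7A1, 2 of 3 hexagonal network (type VIII and X) chains, 5 of 10 chains of fibril-associated collagens with interrupted helices (FACIT), 1 of 4 transmembrane chains (COL17A1), both multiplexins and 2 chains of no class (COL26A1 and COL28A1).

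Collagens are trimers of alpha chains, each built of glycine-rich repeats that wind into a triple helix. The fibrillar types give tissues tensile strength, type IV forms the sheet-like network of basement membranes, and type VI forms beaded filaments at the border of the cell. Chains are hydroxylated on proline and lysine in the endoplasmic reticulum by enzymes that use molecular oxygen, folded with the chaperone SERPINH1 (HSP47), trimmed outside the cell and cross-linked by lysyl oxidases. Epithelial cells make mainly basement membrane, anchoring and transmembrane collagens, whereas the fibrillar types I, III and V are typical products of fibroblasts and other mesenchymal cells.

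The study asked how hypoxia and METTL4 alter transcription in FADU, a head and neck cancer line, and in BFTC-909, a line from an upper tract urothelial cancer. Each knockdown table held 2 libraries of each of 3 groups: Scramble-si cells in normoxia (18% O2), Scramble-si cells in hypoxia (1% O2) and METTL4-si cells in hypoxia, spelled METL4-si in the labels, all for 18 h. The third table held FADU cells in normoxia (18% O2, 18 h) with a control vector, with METTL4 overexpression (METTL4-OE) or with overexpression of the long noncoding RNA RP11-390F4.3 (RP11-390F4.3-OE), 2 libraries each. The fourth held 1 library of FADU cells from a CRISPR control and 1 from each of 2 clones with the DPPW motif of METTL4 mutated (METTL4-DPPW-mut), all in hypoxia (1% O2, 18 h). The knockdown was made with lentiviral shRNA vectors, the overexpressing cells were stable lines from plasmids, and each mutant was grown from a single cell, so a difference of 1 clone can be its own. Nothing states that the 2 libraries of a group came from separate cultures, so the p-values measure only the spread between these libraries, which may be technical. The RP11-390F4.3-OE columns carried another name and were assigned to that group as the only 1 left.

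Each library held 17.8 to 25.4 M reads on genes. METTL4 RNA was at 26.6 and 25.3 counts-per-million (CPM) in the Scramble-si hypoxia libraries of FADU and at 24.2 and 27.1 in the METTL4-si libraries, which overlap (log2 fold change −0.02, limma adjusted p = 0.90). In BFTC-909 it was at 19.0 and 15.6 against 14.4 and 12.2 (−0.36, adjusted p = 0.0717), and in FADU METTL4-OE at 158 and 139 against 35.4 and 32.7 in the control (2.09, adjusted p = 4.32e-11). All 6 squamous epithelium markers were present in FADU, with sums of 1918 to 3563 CPM in the knockdown libraries. BFTC-909 held only 2 of these 6 and 4 of 9 simple and urothelial markers, whose sum was 22.0 to 85.2 CPM in 5 libraries and 1249 in METTL4-si replicate 2, while 10 of 12 fibroblast markers other than collagens summed to 959 to 1890 CPM (83.4 to 131 in FADU, 4 of 12 present). In BFTC-909 the fibroblast sum was carried by SPARC (579 to 1117 CPM) and THY1 (137 to 259), while LUM, POSTN, FBLN1 and TWIST2 were at 8.19 or below in every library. The renal epithelial factor gene PAX8 stood at 322 to 384 CPM, but it was the only 1 of 6 listed kidney genes with a row in BFTC-909. KRT18 stood at 76.3 and 73.4 in normoxia, so these markers do not place the line in 1 cell type. In the knockdown libraries of FADU and BFTC-909 respectively, the smooth muscle and pericyte list summed to 4.69 to 7.43 and 50.7 to 105 CPM, the endothelial list to at most 12.5 and 7.20, the immune list to at most 6.10 and 2.86, the neural list to at most 11.6 and 179.9, and the kidney list to at most 6.20 and 384. The kidney sum of BFTC-909 is PAX8 alone. FADU normoxia replicate 1 and FADU METTL4-si replicate 1 stood apart from the other FADU knockdown libraries by single breast epithelium genes. TFF1, an oestrogen-regulated secreted peptide gene, stood at 26.2 and 135 in those libraries and at 0 in the other 4. The sum of the 8 breast epithelium markers with a row (of 12) set only METTL4-si replicate 1 apart (1182 CPM). It was 348 in normoxia replicate 1 and 180.3 to 345 in the other 4 libraries. BFTC-909 METTL4-si replicate 2 had the epithelial keratin KRT8 at 715 against 2.60 to 7.55 in its 5 companions, and RP11-390F4.3-OE replicate 2 had the breast marker GREB1 at 26.9 against 0.73 to 2.94.

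Some collagens that passed in at least 1 comparison below had no promoter window to search. Of those with a window, 6 hold in it the 5-base core of the hypoxia response element, the site to which hypoxia-inducible factors bind. COL4A1, COL4A4, COL4A5, COL4A6, COL5A3, COL6A2, COL6A3, COL7A1, COL17A1, COL27A1 and COL28A1 had a window and hold none. Over all genes with a window, 14318 of 27305 hold a core, so holding one does not set these 6 apart. A stretch with 1 core is shown for 4 of the 6. COL4A2, whose core lies in an untranslated exon of COL4A1, and COL16A1, whose core lies after the start, are not shown. Each line gives 30 bases of the gene's own strand, 5′ to 3′, with coordinates of GRCh37, and the capitals mark the core, ACGTG or GCGTG, or its reverse complement, CACGT or CACGC.
COL5A1, chr9:137533413-137533442, plus strand, 226 bases before the start, no annotated gene: ccgcgcccgcccCACGTccgctccgccccg
COL9A2, chr1:40782999-40783028, minus strand, 58 bases before the start, in an exon of another COL9A2 transcript: caggtgacagctCACGCcggcccccgcccc
COL12A1, chr6:75915900-75915929, minus strand, 148 bases before the start, in an exon of another COL12A1 transcript: tcgaagtatgcaCACGTtcccaaaagtaga
COL18A1, chr21:46875359-46875388, plus strand, 65 bases before the start, in an intron of a longer COL18A1 transcript: gagggcaggaggGCGTGagcctggctagcc

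The core was sought on both strands of RefSeq promoter windows of 300 bases (GRCh38.p14, 250 before to 50 after each start), and the windows were placed on GRCh37 by exact match. A core lay in 19 of 44 windows of 32 collagen genes, or 43.2%, against 48.4% of all 35116 windows. Among the 23 collagen genes that had both a window and a row, 13 of 30 windows held one (43.3%). COL1A1, COL1A2, COL3A1, COL5A2, COL6A1, COL6A5, COL8A1, COL9A3 and COL14A1 passed in a comparison but had no window, so they were not searched. Per window, the share among collagens was not above that of all promoters. Counted by gene, 17 of 32 collagens had a core in at least 1 window, against 14318 of 27305 genes. Both COL5A1, which rose in hypoxia in both lines, and COL12A1, which fell in BFTC-909, held a core. A match is a run of letters and was not tested as a binding site.

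The lines differed in which collagens they made, and the plot of collagen levels in the knockdown libraries shows these levels side by side. Levels of different genes are compared here as CPM per kilobase (kb) of the canonical transcript. In FADU normoxia the highest was COL17A1, the hemidesmosome collagen that anchors basal keratinocytes (53.1 per kb, libraries 52.5 and 53.7). It was followed by the FACIT chain COL12A1 (17.4), COL7A1 (14.0), the fibrillar chain COL27A1 (13) and COL4A2 (12.6). The ranges of COL27A1 (12.7 to 13.4 per kb) and COL4A2 (12.5 to 12.7) overlapped, and those of COL7A1 and COL27A1 (13.5 to 14.5 against 12.7 to 13.4) were adjacent. In BFTC-909 normoxia the order was COL6A2 (196 per kb), COL1A2 (166), COL6A1 (155), COL6A3 (71.1), COL4A2 (38.2) and COL1A1 (34.8), and the ranges of COL1A2 and COL6A1 were separate (159 to 174 against 153 to 156). COL1A2, COL6A3, COL6A5, COL9A2, COL14A1 and COL15A1 had rows only in the BFTC-909 table, whereas COL4A3, COL4A4, COL9A3, COL24A1, COL26A1 and COL28A1 had rows only in FADU tables.

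**Figure D1:**
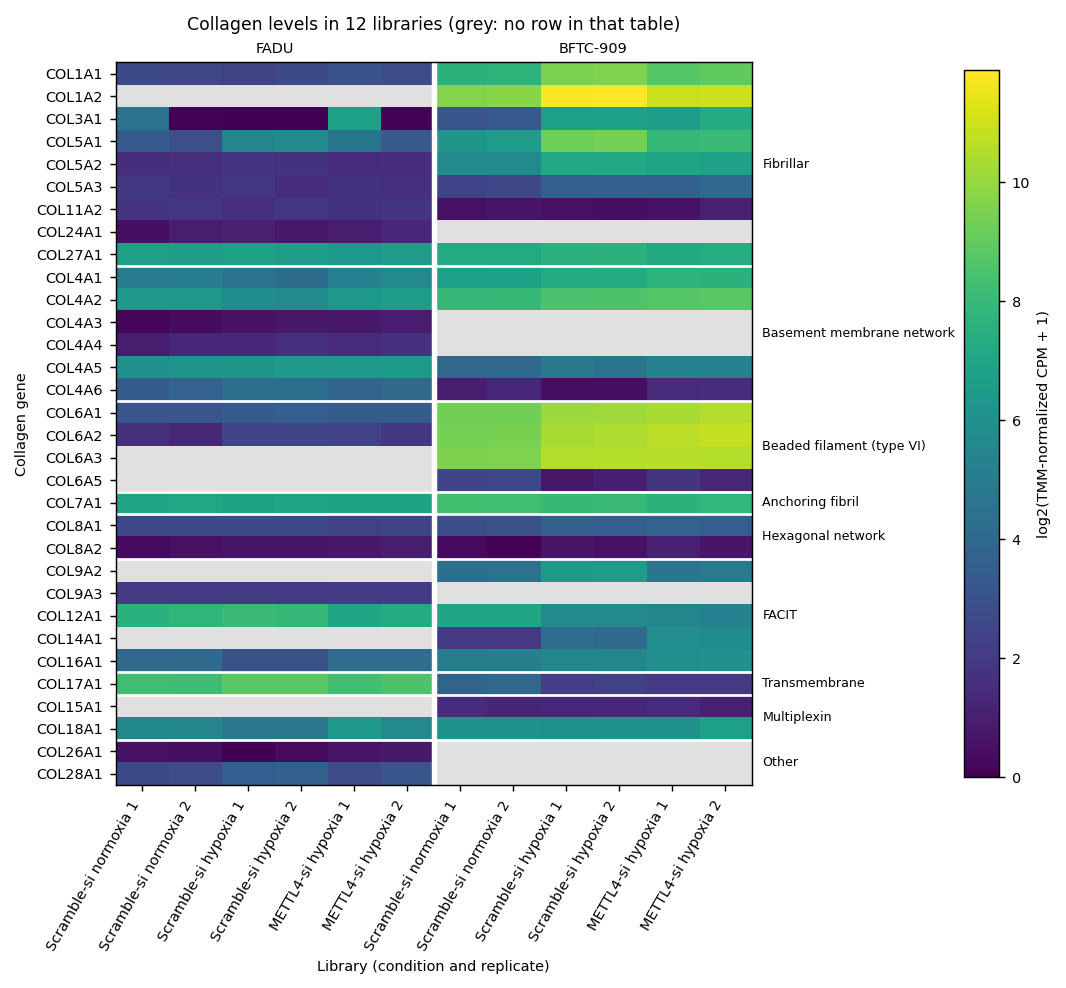
Heatmap of log2(CPM + 1) for the 32 collagen genes (rows, by class) in the 12 knockdown libraries (columns), with grey where a table has no row for the gene. FADU columns are brightest at COL17A1 and COL12A1, BFTC-909 columns at COL1A2 and the type VI chains, and COL3A1 in FADU stands out in METTL4-si replicate 1 (109 CPM) and normoxia replicate 1 (20.3 CPM).

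Summed over all collagens, FADU held 150.2 and 148 CPM per kb in normoxia and 179 and 178 in hypoxia, and COL17A1 alone was 35.8% and 35.4% of the sum in normoxia and 45.7% and 46.0% in hypoxia. In the METTL4-si libraries of FADU the sum was 172 and 165 and the share of COL17A1 31.9% and 40.1%. Without COL3A1, which stood out in METTL4-si replicate 1, the METTL4-si sums were 152 and 165 and the shares 36.0% and 40.1%, and the normoxia sums were 147 and 148. The sum in BFTC-909 was 776 and 811 per kb in normoxia, 1911 and 1997 in hypoxia and 1619 and 1786 in METTL4-si hypoxia. Its fibrillar part went from 29.7% and 30.9% to 50.8% and 50.9% in hypoxia and stood at 33.3% and 32.5% in METTL4-si hypoxia. Type VI chains made up 53.7% and 52.9%, then 40.2% in both, then 56.3% and 57.2%.

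Chains of 1 trimer were not held at 1 ratio to each other. The COL1A2 to COL1A1 ratio of levels per length was 4.57 to 5.77 in BFTC-909, whereas type I collagen itself holds more COL1A1 than COL1A2 chains. The COL5A1 to COL5A2 ratio in BFTC-909 was 1.23 and 1.46 in normoxia, 3.49 and 3.75 in hypoxia and 1.59 and 1.92 in METTL4-si hypoxia. In FADU it was 4.22 and 2.59, then 14.0 and 16.8, then 11 and 4.22. The COL4A2 to COL4A1 ratio varied less than that of COL5A1 to COL5A2, from 2.02 to 3.40 over all 21 libraries. The type IV genes lie in head-to-head pairs: on GRCh37 the starts of COL4A4 and COL4A3 are 171 bases apart on chromosome 2 and those of COL4A6 and COL4A5 341 bases apart on chromosome X. The models of COL4A1 (chr13:110801310-110959504, minus strand) and COL4A2 (chr13:110958159-111165556, plus strand) overlap at their starts, and the strand setting of the counting is not given in the sources used here, so reads there could be counted for either gene.

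COL3A1, the fibrillar chain of type III collagen, separated libraries of FADU rather than conditions. It was at 20.3 and 0.045 CPM in normoxia (489 reads and 1 read), at 0 in both hypoxia libraries and at 109 and 0.044 in METTL4-si hypoxia (2732 reads and 1 read). Only the 2 libraries that stood apart held more than 1 read of it, and there TFF1, GREB1 and the secreted disulphide isomerase gene AGR2 were also high, as the plot of COL3A1 and 4 other genes shows. GREB1 was at 36.9 and 187 CPM in those libraries and at 0.85 to 1.51 in the rest, and AGR2 at 10.6 and 55.0 against 0.090 to 0.40. The test gave no call for COL3A1 in either FADU comparison (log2 fold change −2.24 ± 2.19 SE for hypoxia, limma adjusted p = 0.495, and 3.42 ± 2.19 for METTL4-si, adjusted p = 0.266). Without these 2 libraries no FADU library of the table held more than 1 read of the gene. In such bulk RNA, fewer cells of a type and less RNA per cell cannot be told apart.

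**Figure D2:**
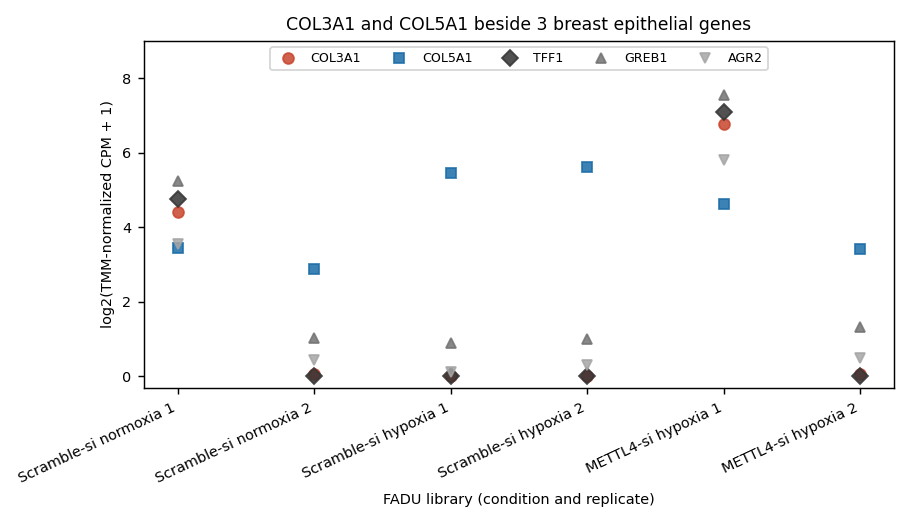
Levels of COL3A1, COL5A1, TFF1, GREB1 and AGR2 (CPM) in the 6 FADU knockdown libraries, 1 point per library. COL3A1, TFF1, GREB1 and AGR2 are high only in normoxia replicate 1 and METTL4-si replicate 1, while COL5A1 is highest in both Scramble-si hypoxia libraries (42.9 and 48.4 CPM).

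Hypoxia in BFTC-909 moved 20 of the 24 collagens tested, most of them upward. A gene was counted as risen or fallen at 1.3-fold or more with a Benjamini-Hochberg adjusted p under 0.05 over all genes of the table, from limma on log2(CPM + 1), with n = 2 libraries per group. By this rule 16 collagens rose and 4 fell, against 17.9% and 18.3% of all 14869 genes (36.2% in either direction). The median log2 fold change of the 24 was 0.67, against −0.02 over all genes. The fibrillar class led, with 6 of 7 tested chains risen and a median of 1.86. Of 4 tested chains each, 3 of type IV, 3 of type VI and 3 of the FACIT class rose too, as did COL8A1.

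Among the fibrillar chains, COL1A2 (chr7:94024207-94060539) stood at 805 and 882 CPM in normoxia and at 3595 and 3755 in hypoxia. COL1A1, its partner in type I collagen, went from 199 and 213 to 726 and 771. For both chains every hypoxia library lay far above both normoxia libraries, and the log2 fold changes were 2.12 ± 0.08 (SE, adjusted p = 8.91e-06) and 1.86 ± 0.09 (adjusted p = 1.9e-05). COL3A1 was at 7.65 and 9.27 CPM in normoxia and at 108 and 109 in hypoxia. The gap was the widest on the log2 scale among the collagens of this line (3.53 ± 0.20, adjusted p = 3.3e-05), and the libraries concerned had KRT8 at 2.60 to 7.55. Type V collagen, which sets the diameter of type I fibrils, rose in all 3 chains. COL5A1 (chr9:137533649-137736689) went from 76.2 and 91.6 to 619 and 661, without overlap (2.92 ± 0.10, adjusted p = 8.37e-06). COL5A2 went from 49.99 and 50.9 to 144 and 143 (1.49 ± 0.07) and COL5A3 from 4.16 and 5.03 to 11 and 11.7 (1.14 ± 0.15). COL27A1 was higher in both hypoxia libraries (150.2 and 152 against 191 and 197), at an adjusted p of 0.00459, but its 0.36 on the log2 scale lay under 1.3-fold.

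The other classes of BFTC-909 rose less, except for 2 FACIT chains. COL14A1, a FACIT collagen that sits on fibrils, was at 3.0 and 2.94 CPM in normoxia and 17.7 and 15.8 in hypoxia (log2 fold change 2.16 ± 0.10). COL9A2, a chain of type IX collagen best known from cartilage, went from 19.4 and 21.2 to 87.8 and 91.9 (2.09 ± 0.12). No library of either group overlapped the other for these genes. The type VI chains COL6A1 (644 and 656 to 1077 and 1135 CPM), COL6A2 (665 and 688 to 1287 and 1348) and COL6A3 (732 and 765 to 1465 and 1487) rose by 0.77, 0.96 and 0.98 on the log2 scale. Among the basement membrane chains, COL4A1 (102 and 111 to 154 and 159), COL4A2 (242 and 251 to 365 and 379) and COL4A5 (15.4 and 15.6 to 25.5 and 22.8) rose by 0.55, 0.59 and 0.60. COL8A1 (6.0 and 6.59 to 11.6 and 10.6) and COL16A1 (32.0 and 32.9 to 43.4 and 45.9) rose by 0.73 and 0.45. All of these had separate groups, but COL16A1 lost its call without normoxia replicate 1 (0.43, adjusted p = 0.0567) or hypoxia replicate 2 (0.41, adjusted p = 0.0571).

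The 4 collagens that fell in BFTC-909 hypoxia were COL12A1, COL17A1, COL6A5 and COL4A6. COL12A1 was at 128 and 130.5 CPM in normoxia and at 48.4 and 47.0 in hypoxia (log2 fold change −1.42 ± 0.08, adjusted p = 3.29e-05). COL17A1 went from 13.1 and 14.2 to 3.47 and 4.11 (−1.62 ± 0.13) and the type VI chain COL6A5 from 4.61 and 4.91 to 0.72 and 1.00 (−1.63 ± 0.18). These genes had all hypoxia libraries below all normoxia libraries. COL4A6 was near the detection floor, at 0.94 and 1.51 against 0.39 and 0.38 (−0.67 ± 0.17), and lost its call without normoxia replicate 2 or either hypoxia library. COL7A1 (311 and 298 against 249 and 264, −0.25), COL18A1 (66.2 and 66.3 against 60.7 and 64.3, −0.08) and COL15A1 (−0.04) did not pass.

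Genes that make collagen were read from a list in the same libraries. Of 35 listed genes of collagen biosynthesis and processing, 33 were tested in BFTC-909, 25 rose and 2 fell (ADAMTS14 and ADAMTS3), and their median log2 fold change was 0.70 (over all genes 17.9% rose and 18.3% fell). The prolyl hydroxylases P4HA1 and P4HA2 rose by 1.64 and 1.76 on the log2 scale, the lysyl hydroxylase PLOD2 by 1.73, LOX by 1.84, SERPINH1 by 1.62 and CREB3L1, a transcription factor known to drive collagen genes, by 1.93. Of the listed receptors, 7 of 12 were tested, and DDR2 (1.22), ITGA1 (1.44) and MRC2 (0.99) rose. The fibroblast markers other than collagens summed to 959 and 989 CPM in normoxia and 1857 and 1890 in hypoxia, and their part in the collagen result was not tested.

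Hypoxia in FADU moved fewer collagens and in both directions. Of 23 tested, 5 rose and 3 fell, against 9.73% and 9.65% of all 16324 genes (19.4% in either direction), and the median log2 fold change was 0.02, against −0.03 over all genes. COL5A1, at 9.97 and 6.43 CPM in normoxia and 42.9 and 48.4 in hypoxia, rose by 2.37 ± 0.38 on the log2 scale (adjusted p = 0.00713). The groups did not overlap, and the higher normoxia value came from the library that stood apart. COL17A1 (chr10:105791044-105845638) was at 302 and 295 in normoxia and 460.0 and 459 in hypoxia, again without overlap (0.62 ± 0.09, adjusted p = 0.00598). COL6A2 (2.08 and 1.61 to 4.31 and 4.33), COL28A1 (5.36 and 6.30 to 10.7 and 11.8) and COL4A6 (10.5 and 12.4 to 18.4 and 18.9) rose by 0.91, 0.85 and 0.66.

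COL16A1, a FACIT chain of several epithelial and connective tissues, fell the most in FADU, from 16.0 and 17.0 CPM to 6.60 and 6.75 (log2 fold change −1.19 ± 0.10, adjusted p = 0.000761). It kept its call in each of the 16 alternatives. The basement membrane pair fell as well: COL4A1 from 29.5 and 30.7 to 20.7 and 17.6 (−0.63 ± 0.13, adjusted p = 0.0166) and COL4A2 from 81.6 and 80.5 to 53.4 and 50.9 (−0.63 ± 0.09, adjusted p = 0.00512). In all 3 genes both hypoxia libraries lay below both normoxia libraries. COL18A1, the source of endostatin, was also lower in both hypoxia libraries (45.9 and 44.3 against 26.1 and 25.9), but did not pass (−0.77 ± 0.23, adjusted p = 0.0528), nor did COL6A1 (8.10 and 7.68 against 9.97 and 10.8, 0.36, adjusted p = 0.0512). COL12A1 (193 and 215 against 272 and 236, 0.31), COL4A5 (63.5 and 69.7 against 77.3 and 82.7, 0.26), COL7A1 (124 and 134 against 119 and 127), COL27A1 (105 and 98.9 against 105 and 101), COL8A1 (5.15 and 5.41 against 5.30 and 5.38) and COL1A1 (5.24 and 4.69 against 4.40 and 5.06) did not pass. The remaining 9 collagens with a row, other than COL3A1, were at 3.01 CPM or below in every normoxia and hypoxia library.

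These FADU counts rest on few libraries. The number risen was 2 without normoxia replicate 1, 1 without normoxia replicate 2 and 0 without either hypoxia library, where the limma adjusted p of the 5 genes was 0.0594 to 0.129, and the number fallen was 1 without either hypoxia library. With both libraries that stood apart left out, COL5A1 was at 2.65. That fit leaves 1 library each in normoxia and METTL4-si. Its spread comes from the 2 Scramble-si hypoxia libraries alone, so its calls are not given here, though the totals of alternatives include them. Of the biosynthesis genes, 27 were tested in FADU, and LOX (2.01), LOXL2 (1.39), P3H2 (0.68), P4HA1 (2.05), P4HA2 (1.79) and PLOD2 (2.18) rose while 5 fell (ADAMTS3, LOXL3, P3H4, PCOLCE2 and TMEM38B), with a median of −0.06. Over all genes 9.73% rose and 9.65% fell. Of 8 receptors tested, DDR2 rose (0.55) and ITGA2 fell (−0.49).

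**Figure D3:**
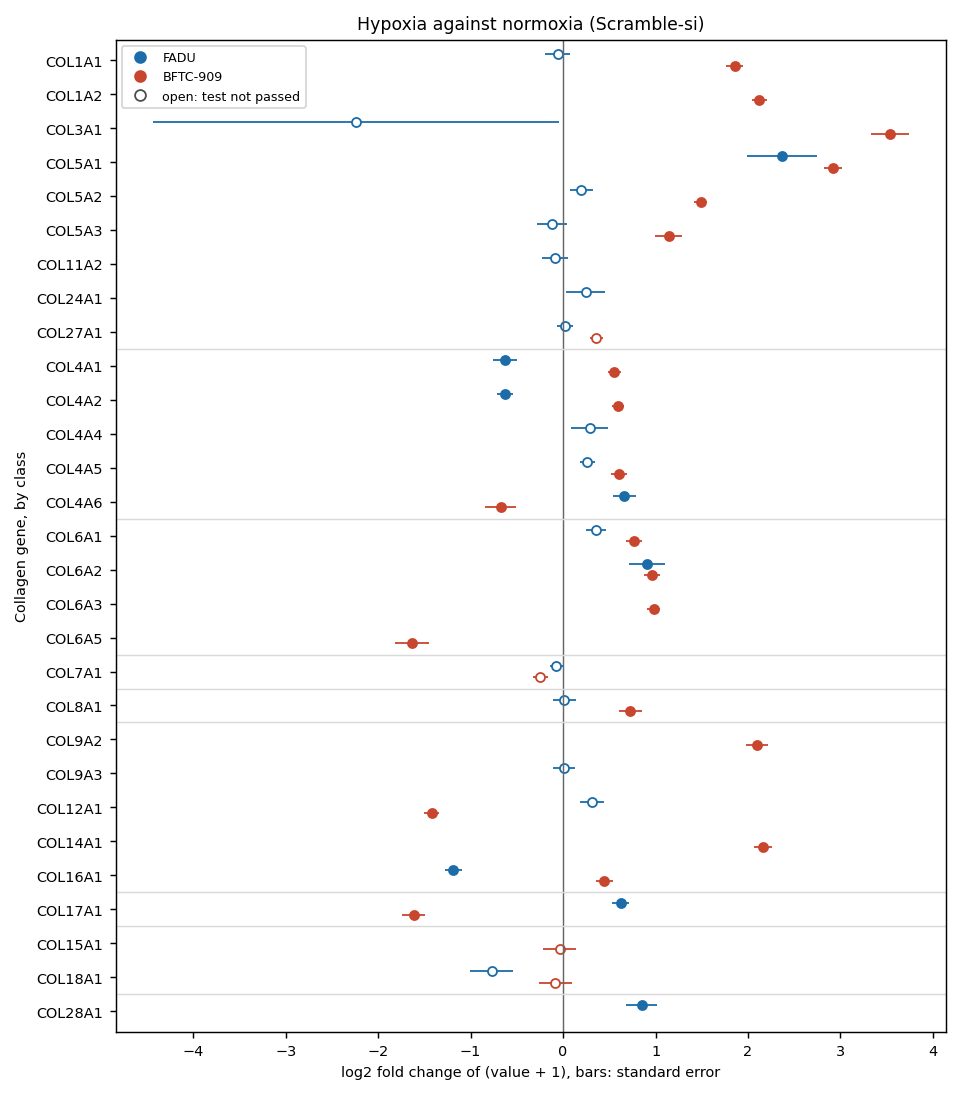
Log2 fold change (hypoxia minus normoxia, Scramble-si cells) with its standard error for each collagen tested, in FADU and BFTC-909, with filled points for genes that passed 1.3-fold and an adjusted p under 0.05. In BFTC-909 16 genes lie to the right and passed, led by COL3A1 (3.53) and COL5A1 (2.92), while FADU has 5 to the right and 3 to the left.

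The responses of the lines to hypoxia were compared in 1 model over the 18 collagens tested in both. The change was more positive in BFTC-909 for 8 and more negative for 3, against 11.0% and 12.8% of all 13595 genes (23.8% in either direction). The widest differences among those that passed were those of COL17A1 (BFTC-909 minus FADU −2.24 ± 0.14 on the log2 scale, limma adjusted p = 1.28e-05), COL1A1 (1.91 ± 0.14, adjusted p = 3.46e-05), COL12A1 (−1.73 ± 0.16, adjusted p = 0.000103) and COL16A1 (1.63 ± 0.12, adjusted p = 3.12e-05). COL3A1 differed by 5.77 ± 2.55 and did not pass (adjusted p = 0.126). COL6A1 (0.41) lost its call without any 1 of FADU normoxia replicate 1, FADU hypoxia replicate 1, either BFTC-909 normoxia library and BFTC-909 hypoxia replicate 2 (0.36 to 0.42). COL17A1, COL4A1, COL4A2, COL4A6 and COL16A1 passed in opposite directions in the lines. COL5A1 rose in both, and its responses could not be told apart (0.56 ± 0.44, adjusted p = 0.395).

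METTL4-si in hypoxic FADU cells moved 8 of 23 collagens. This comparison shares its 2 Scramble-si hypoxia libraries with the hypoxia comparison, so a chance high or low value in them moves both in opposite directions. In all 4 collagens rose and 4 fell, against 12.5% and 15.3% of all genes (27.8% in either direction), and the median log2 fold change was −0.01, against 0.02 over all genes. COL16A1 was at 6.60 and 6.75 CPM in Scramble-si hypoxia and 18.1 and 17.9 in METTL4-si hypoxia, near its normoxia values of 16.0 and 17.0 (1.31 ± 0.10, adjusted p = 0.000341). COL4A1 stood at 20.7 and 17.6 against 37.2 and 46.9 (1.09 ± 0.13, adjusted p = 0.00159) and COL4A2 at 53.4 and 50.9 against 79.0 and 93.4 (0.71 ± 0.09, adjusted p = 0.00203). Both METTL4-si libraries were higher for each of these genes. COL18A1 was at 26.1 and 25.9 against 83.1 and 47.1 (1.24 ± 0.23, adjusted p = 0.00785). The higher value, 83.1, came from the METTL4-si library that stood apart, and the fold change was 0.83 without the 2 such libraries.

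Of the collagens that fell with METTL4-si in FADU, COL5A1 was at 42.9 and 48.4 CPM in Scramble-si hypoxia and at 23.8 and 9.74 in METTL4-si hypoxia (log2 fold change −1.51 ± 0.38, adjusted p = 0.0223). Its higher METTL4-si value again came from the library that stood apart, and without the 2 such libraries the value was −2.11. COL12A1 went from 272 and 236 to 125 and 156 (−0.85 ± 0.13, adjusted p = 0.00341), below its normoxia values of 193 and 215 too. COL28A1 went from 10.7 and 11.8 to 5.62 and 7.88 (−0.68 ± 0.17, adjusted p = 0.0223). COL17A1 was at 460.0 and 459 against 307 and 371 (−0.45 ± 0.09, adjusted p = 0.0127), and fell under 1.3-fold (−0.31) without METTL4-si replicate 1. No group of these genes overlapped the other. COL27A1 (105 and 101 against 78.8 and 90.4) had an adjusted p of 0.0372 at −0.29, under 1.3-fold. COL7A1 (119 and 127 against 116 and 119), COL4A5 (77.3 and 82.7 against 81.4 and 88.0), COL4A6 (18.4 and 18.9 against 13.8 and 16.4), COL6A1 (9.97 and 10.8 against 10.2 and 10.4), COL6A2 (4.31 and 4.33 against 4.11 and 2.63), COL8A1 (5.30 and 5.38 against 3.95 and 4.36) and COL1A1 (4.40 and 5.06 against 6.62 and 5.83) did not pass. The number fallen was 1, not 4, without either Scramble-si hypoxia library, and COL18A1 lost its call there too (1.24 and 1.23, adjusted p = 0.0612 and 0.064). The squamous markers also moved with this comparison, from 3112 and 3417 CPM in Scramble-si hypoxia to 1918 and 2138 in METTL4-si hypoxia, beside the fall of the keratinocyte collagen COL17A1. The part of these markers in the collagen values was not tested.

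Of 27 tested biosynthesis genes 6 rose and 6 fell with METTL4-si in FADU, against 12.5% and 15.3% of all genes. The enzymes LOX (−1.79), LOXL2 (−1.41), P3H2 (−0.96), P4HA1 (−1.66), P4HA2 (−1.10) and PLOD2 (−1.76) fell, while ADAMTS3, FKBP7, MIA3, P3H4, PCOLCE2 and TMEM38B rose by 0.58 to 1.09. Of 8 receptors 5 rose (ADGRG1, DDR1, ITGA1, ITGA2 and MRC2, by 0.46 to 1.14) and DDR2 fell (−0.77), against the same shares of all genes.

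METTL4-si in hypoxic BFTC-909 cells lowered the type I chains, COL5A1 and COL9A2 and raised COL14A1. Of 24 collagens 5 rose and 4 fell, against 13.2% and 11.7% of all genes (24.9% in either direction), and the median log2 fold change was 0.12, against 0.01 over all genes. This comparison too shares its Scramble-si hypoxia libraries with the hypoxia comparison. With each library centred on its median gene the split was 3 risen and 6 fallen. COL1A2 was at 3595 and 3755 CPM in Scramble-si hypoxia and at 1939 and 2003 in METTL4-si hypoxia (−0.90 ± 0.08, adjusted p = 0.00028), still above its normoxia values of 805 and 882. COL1A1 was at 726 and 771 against 434 and 511 (−0.67 ± 0.09, adjusted p = 0.00184). COL5A1 was at 619 and 661 against 236 and 262 (−1.36 ± 0.10, adjusted p = 0.000144). For these fibrillar chains the METTL4-si libraries lay between those of normoxia and of Scramble-si hypoxia. COL9A2 was at 87.8 and 91.9 against 22.5 and 28.8, close to its normoxia values of 19.4 and 21.2 (−1.78 ± 0.12, adjusted p = 0.000104).

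COL14A1 was at 17.7 and 15.8 CPM in Scramble-si hypoxia and 56.0 and 52.7 in METTL4-si hypoxia (log2 fold change 1.64 ± 0.10, adjusted p = 7.1e-05), so that it rose in hypoxia and again with METTL4-si. The type IV chain COL4A5 went from 25.5 and 22.8 to 35.7 and 36.8 (0.57 ± 0.09, adjusted p = 0.00325), without overlap. COL4A6 (0.39 and 0.38 to 1.74 and 1.96, 1.04 ± 0.17), COL6A5 (0.72 and 1.00 to 2.44 and 1.51, 0.66 ± 0.18) and COL16A1 (43.4 and 45.9 to 55.5 and 63.7, 0.41 ± 0.09) also rose. COL6A5 and COL16A1 did not pass once the libraries were centred on their medians (0.56 and 0.31). Neither passed without either Scramble-si hypoxia library (0.55 and 0.77 for COL6A5, 0.37 and 0.44 for COL16A1). COL16A1 also lost its call without METTL4-si replicate 2 (0.31) and COL6A5 without METTL4-si replicate 1 (0.43) or either normoxia library (adjusted p = 0.0624 and 0.063). The number risen was 3 without either Scramble-si hypoxia library and 9 without METTL4-si replicate 1.

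COL3A1 did not pass with METTL4-si in BFTC-909 (108 and 109 CPM against 96.0 and 156, log2 fold change 0.18 ± 0.20, adjusted p = 0.544). The higher value came from METTL4-si replicate 2, the library with KRT8 at 715 CPM and GREB1 at 121 (10.6 in replicate 1). COL18A1 had its highest value in the same library (60.7 and 64.3 against 65.5 and 103, 0.39, adjusted p = 0.141). In FADU, COL3A1 and COL18A1 were likewise higher in the METTL4-si library that stood apart. The part of reads from other cells in these values was not tested. COL4A1 (154 and 159 against 204 and 198, 0.36), COL4A2 (365 and 379 against 424 and 442, 0.22), COL5A2 (144 and 143 against 119.9 and 110.5, −0.31), COL6A1 (1077 and 1135 against 1261 and 1465, 0.30), COL6A2 (1287 and 1348 against 1592 and 1830.0, 0.37) and COL27A1 (191 and 197 against 148 and 162, −0.33) had an adjusted p under 0.05 but lay under 1.3-fold. COL5A3 (11 and 11.7 against 12 and 15.5), COL6A3 (1465 and 1487 against 1569 and 1499.8), COL7A1 (249 and 264 against 199 and 231), COL8A1 (11.6 and 10.6 against 12.5 and 10.8), COL12A1 (48.4 and 47.0 against 42.9 and 37.7) and COL17A1 (3.47 and 4.11 against 2.95 and 3.07) did not pass.

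In BFTC-909, 17 of 33 tested biosynthesis genes fell with METTL4-si and 3 rose, with a median log2 fold change of −0.40 (over all genes 11.7% fell and 13.2% rose). Those that fell included CREB3L1 (−1.35), P4HA1 (−1.15), LOX (−1.05), PLOD2 (−1.0), LOXL2 (−0.99), SERPINH1 (−0.95) and P4HA2 (−0.80), and those that rose were the procollagen N-proteinase gene ADAMTS14 (2.88), the C-proteinase enhancer gene PCOLCE (1.17) and P4HA3 (0.69). Of 7 receptors tested, MRC2 rose (0.51). The fibroblast markers other than collagens went from 1857 and 1890 CPM in Scramble-si hypoxia to 1584 and 1384 in METTL4-si hypoxia, and SPARC among them from 1090 and 1117 to 657 and 579. Their part in the collagen values was not tested.

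**Figure D4:**
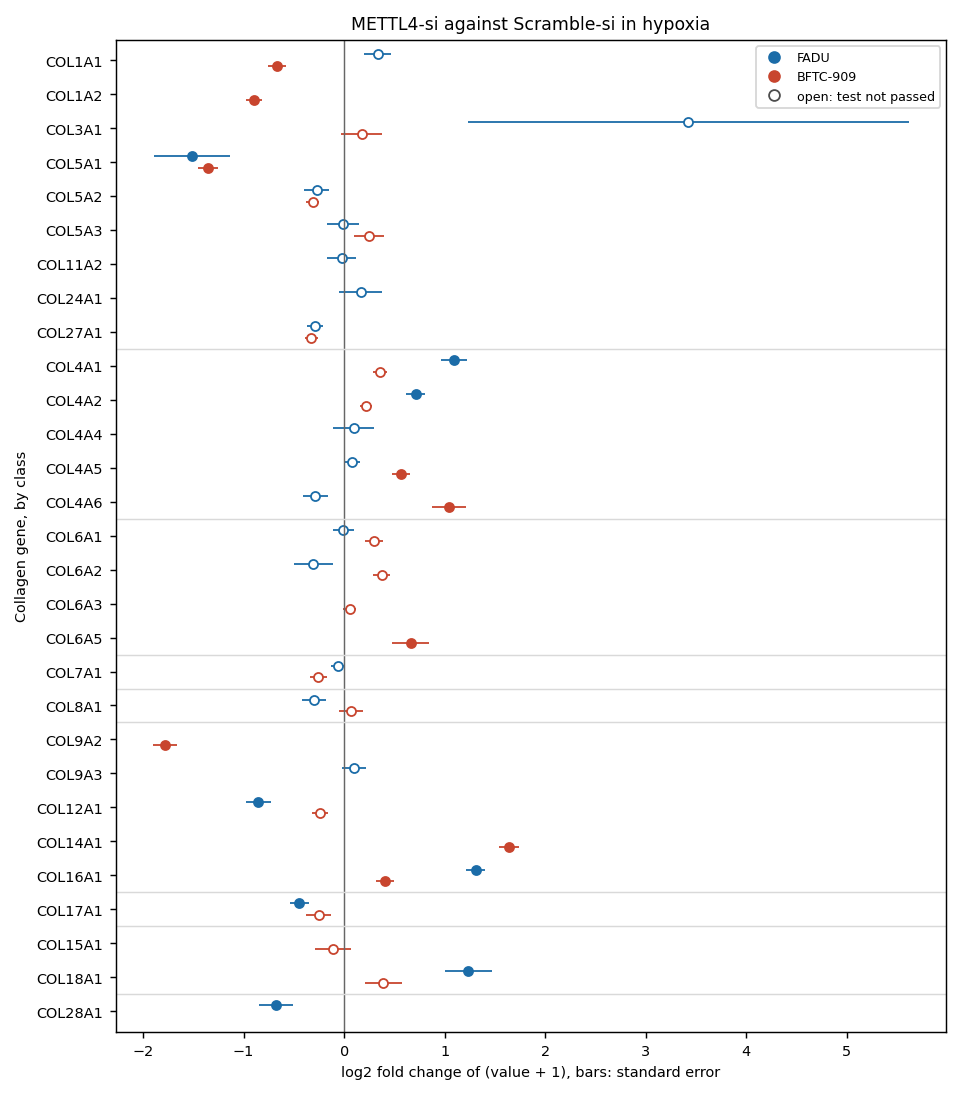
Log2 fold change (METTL4-si minus Scramble-si, both in hypoxia) with its standard error for each collagen tested, in FADU and BFTC-909, with filled points for genes that passed. COL5A1 lies to the left and passed in both lines (−1.51 and −1.36), COL16A1 to the right in both (1.31 and 0.41), and COL3A1 of FADU has the longest error bar (2.19).

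Between the lines the METTL4-si responses differed for 8 of 18 collagens, 4 more positive in BFTC-909 and 4 more negative, against 14.4% and 9.12% of all genes (23.5% in either direction). Among those that passed, COL4A6 differed most (1.33 ± 0.21, limma adjusted p = 0.00173), but it was near the detection floor in BFTC-909 (8 reads in each Scramble-si hypoxia library). It was followed by COL1A1 (−1.0 ± 0.14, adjusted p = 0.00108), COL16A1 (−0.90 ± 0.12, adjusted p = 0.00078) and COL4A1 (−0.74 ± 0.15, adjusted p = 0.00686). COL3A1 (−3.25 ± 2.55, adjusted p = 0.385) and COL18A1 (−0.84 ± 0.34, adjusted p = 0.0956) did not pass. COL5A1, which fell in both, did not differ detectably (0.15 ± 0.44, adjusted p = 0.833). The number more positive was 2 without either FADU Scramble-si hypoxia library or BFTC-909 Scramble-si hypoxia replicate 1, and 1 without BFTC-909 Scramble-si hypoxia replicate 2.

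Overexpression of METTL4 in normoxic FADU cells raised 9 of 21 collagens and lowered 4, against 8.0% and 10.5% of all 15644 genes (18.5% in either direction). The median log2 fold change was 0.10, against 0.01 over all genes. COL5A1 was at 5.68 and 6.51 CPM in the control and at 15.5 and 14.5 with METTL4-OE (1.18 ± 0.11, limma adjusted p = 1.25e-06). COL8A1, a chain of the hexagonal network under endothelium, was at 3.34 and 5.44 against 11.2 and 10.1 (1.14 ± 0.16, adjusted p = 7.66e-05). COL12A1 went from 163 and 151 to 269 and 279 (0.80 ± 0.06, adjusted p = 2.23e-07). Both METTL4-OE libraries exceeded both controls for each of these. COL4A1 (24.2 and 23.4 to 36.8 and 39.5), COL4A2 (60.6 and 68.4 to 92.3 and 91.0) and COL17A1 (246 and 229 to 339 and 328) rose by 0.66, 0.50 and 0.49. COL5A3 (1.53 and 1.3 to 3.93 and 3.13), COL9A3 (2.10 and 2.79 to 4.08 and 4.26) and COL5A2 (1.38 and 1.35 to 2.29 and 2.45) rose by 0.90, 0.59 and 0.51 from low levels. The 4 that fell were COL4A4 (1.91 and 1.72 to 0.70 and 0.59, −0.78), COL1A1 (4.39 and 5.26 to 3.03 and 2.54, −0.62), COL7A1 (97.8 and 103 to 74.5 and 73.7, −0.43) and COL6A1 (6.63 and 6.42 to 4.42 and 4.89, −0.41), all without overlap. COL5A2 lost its call without METTL4-OE replicate 2 (0.47, adjusted p = 0.0659) and COL6A1 without METTL4-OE replicate 1 (−0.35, adjusted p = 0.0849). The squamous markers summed to 3427 and 3324 CPM in the control, to 2771 and 2683 with METTL4-OE and to 2770.2 and 2600.0 with RP11-390F4.3-OE, and their part was not tested.

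Overexpression of RP11-390F4.3 was compared with the same 2 control libraries, so the comparisons are not independent. It raised 7 of 21 collagens and lowered 3, against 16.5% and 12.5% of all genes (29.0% in either direction), with a median log2 fold change of 0.03 against 0.01 over all genes. COL5A1 was at 5.68 and 6.51 CPM in the control and 14.8 and 17.6 here (log2 fold change 1.27 ± 0.11, limma adjusted p = 3.98e-07). COL17A1 went from 246 and 229 to 367 and 371 (0.63 ± 0.05, adjusted p = 1.02e-07) and COL9A3 from 2.10 and 2.79 to 6.20 and 6.34 (1.08 ± 0.13, adjusted p = 1.65e-05). The groups were apart for each. COL4A6 (9.02 and 11.1 to 15.9 and 16.1), COL5A3 (1.53 and 1.3 to 2.94 and 3.51), COL5A2 (1.38 and 1.35 to 2.38 and 2.44) and COL6A2 (1.57 and 1.3 to 2.13 and 2.66) rose by 0.63, 0.81, 0.53 and 0.48. COL6A2 lost its call without RP11-390F4.3-OE replicate 2, the library with GREB1 at 26.9 CPM (0.36, adjusted p = 0.139), and without control replicate 2 (0.39, adjusted p = 0.111). COL12A1, which rose with METTL4-OE, fell here from 163 and 151 to 97.7 and 85.4 (−0.77 ± 0.06, adjusted p = 2.27e-07). COL16A1 (14.6 and 17.1 to 8.98 and 9.34, −0.73 ± 0.10) and COL27A1 (82.8 and 86.5 to 53.1 and 55.0, −0.64 ± 0.05) fell too, again with the groups apart. COL4A5 (58.4 and 59.5, 56.7 and 59.9, then 63.9 and 66.7 in control, METTL4-OE and RP11-390F4.3-OE), COL18A1 (28.4 and 27.9, 26.4 and 24.3, 26.4 and 28.8) and COL28A1 (5.77 and 6.10, 4.22 and 5.12, 5.92 and 4.97) passed in neither. COL4A1 and COL4A2, which rose with METTL4-OE, were at 22.8 and 23.3 and at 59.6 and 60.1 with RP11-390F4.3-OE and did not pass there. COL1A1 (5.23 and 5.91), COL6A1 (6.64 and 6.77), COL7A1 (98.2 and 109) and COL8A1 (4.15 and 3.94) did not pass with RP11-390F4.3-OE, and COL4A6 (11.3 and 12.5), COL16A1 (12.8 and 11.6) and COL27A1 (91.7 and 89.5) did not with METTL4-OE.

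The biosynthesis list had 26 genes tested in these cells. With METTL4-OE 6 rose (LOXL2 0.93, P4HA1 1.21, P4HA2 0.56, PLOD1 0.50, PLOD2 0.56 and PLOD3 0.42 on the log2 scale) and 3 fell (LOXL4 −2.22, ADAMTS3 −0.88 and BMP1 −0.38), against 8.0% and 10.5% of all genes. With RP11-390F4.3-OE 7 rose, among them LOX (1.53), P4HA1 (1.31), P4HA2 (1.07) and PLOD2 (0.95), and 2 fell (LOXL4 −1.75 and ADAMTS3 −0.61), against 16.5% and 12.5% of all genes. The collagen-binding integrin genes ITGA1 and ITGA2 rose with both (0.40 and 0.82, then 0.64 and 1.57), and DDR1 (−0.56) and MRC2 (−0.91) fell with METTL4-OE.

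**Figure D5:**
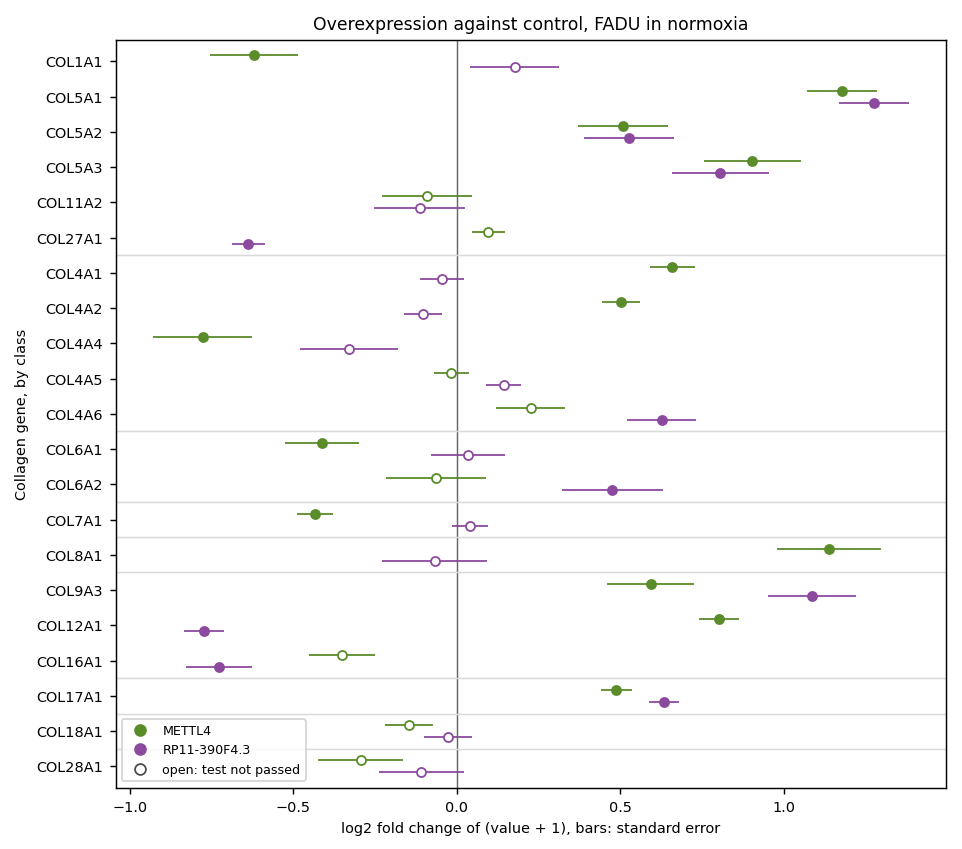
Log2 fold change against the control vector, with its standard error, for each collagen tested in normoxic FADU cells with METTL4-OE or RP11-390F4.3-OE, with filled points for genes that passed. COL5A1 lies to the right with both (1.18 and 1.27), and COL12A1 lies on opposite sides (0.80 and −0.77).

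The METTL4 mutant clones were compared with 1 control library, so their differences have no replicate check and no test. Of 22 collagens with a row, 2 were higher by 1.3-fold or more in both clones and 8 were lower, against 8.94% and 11.8% of all 15719 genes. The median log2 ratios of the collagens were −0.07 and −0.22 in clones 1 and 2, against 2.08e-05 and −0.01 over all genes. COL4A2 was at 33.2 CPM in the control against 59.8 (clone 1) and 43.6 (clone 2), and COL8A1 at 1.27, 4.71 and 2.58. In clone 2 the log2 ratio of COL4A2 (0.385) lay just past the 1.3-fold cut (0.379). The control value of COL8A1 rests on 42 reads. Lower in both clones were COL7A1 (131 in the control, 95.9 and 71.0), COL6A1 (15.0, 11.1 and 9.05), COL16A1 (9.16, 6.67 and 6.09), COL4A6 (8.10, 5.96 and 4.78), COL28A1 (7.16, 3.43 and 4.27), COL1A1 (6.64, 2.83 and 3.22), COL5A3 (3.61, 0.72 and 1.66) and COL11A2 (2.37, 1.01 and 0.99). COL5A1, at 64.8 and 46.5, lay on both sides of its control value of 56.4. COL12A1 (84.6, 122 and 106), COL17A1 (283, 335 and 305), COL4A1 (11.4, 19.0 and 13), COL4A5 (36.9, 35.1 and 27.4), COL18A1 (30.7, 36.6 and 29.7) and COL27A1 (40.1, 38.2 and 44.5) did not pass 1.3-fold in both. With a pseudocount of 5 in place of 1, none was higher in both clones and 3 were lower (COL1A1, COL7A1 and COL28A1). Of the collagens that passed with METTL4-si in FADU, COL4A2 was higher and COL28A1 lower in both clones, the directions they took with METTL4-si. COL16A1, which rose with METTL4-si, was lower in both mutant clones. COL5A1, which fell with METTL4-si, lay on either side of the control. COL4A1, COL12A1, COL17A1 and COL18A1 did not pass 1.3-fold in both clones. These cells and controls differ from those of the knockdown.

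The remaining collagens stayed low throughout. COL11A2, a fibrillar chain known from cartilage, was at 0.38 to 2.81 CPM over all libraries with a row, COL24A1 at 0.42 to 1.47, COL8A2 at 0.042 to 1.22, COL4A3 at 0.14 to 0.89, COL15A1 at 1.06 to 1.83 and COL26A1 at 0 to 0.76. COL4A4 was at 0.59 to 2.22 and passed with METTL4-OE alone among the comparisons made.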

How the data were processed

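RNA of 21 libraries had been sequenced after ribosomal RNA depletion with a stranded kit. Per the labels and the study's methods, the authors used Trim Galore for trimming, HISAT2 for alignment to hg19, HTSeq for counts per gene and edgeR for normalisation. Versions, annotation and the strand setting of the counting are not given in the sources used here. The deposited values are a signal in counts-per-million after TMM scaling, in 4 tables that were normalised separately. Other deposited tables hold the authors' own comparisons (fold change, p-value, F score) and were not used. In the 3 tables with replicates 100.0% of values were whole reads within 0.02. The mutant table starts at 10 reads per library, and the 40.9% to 43.0% of its columns that name no single gene were left out.

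Members were found by symbol, and classes, related genes and markers of squamous, simple and urothelial, breast, fibroblast, smooth muscle, endothelial, immune, neural and kidney cells by fixed lists. Members and lists were chosen with earlier results of these data known. Genes at 1 or more in at least 2 libraries were fitted with limma 3.58.1 (R 4.3.3) on log2(value + 1), the 3 groups of a table sharing 1 spread. A fold change is on that scale, which understates changes of low genes. A pseudocount of 1, a 1.3-fold minimum and a Benjamini-Hochberg adjusted p under 0.05 set a call. Lines were compared by the difference of their within-table changes. Values per library were given for members called at least once or with a mean of 5 or more in a group. For some of these members, values of conditions without a call are left out or given as a range. Other members were given by range. Alternatives were other pseudocounts, filters, scaling and thresholds, edgeR 4.0.16 on the recovered reads, a replicate block and leaving out libraries. Errors after ± are limma standard errors from the spread between libraries, and 1 read was worth 0.030 to 0.050 CPM. The fit was tested on simulated data. Gene models and transcript lengths came from GENCODE on GRCh37, promoters from RefSeq on GRCh38.p14. Figures were drawn with matplotlib 3.10.9 (Python 3.11.15, numpy 2.4.6, pandas 2.3.3).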

Additional observations from a re-analysis of the deposited data

Results flagged for a closer look

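The response of a collagen to the same contrast differed between the lines in 19 cases, each by limma's test of the difference itself (BFTC-909 minus FADU, log2 scale, n = 2 libraries per group). For hypoxia, the change was more positive in BFTC-909 for COL1A1 (1.91), COL16A1 (1.63), COL5A2 (1.29), COL5A3 (1.26), COL4A2 (1.22), COL4A1 (1.19), COL8A1 (0.71) and COL6A1 (0.41), and more negative for COL17A1 (−2.24), COL12A1 (−1.73) and COL4A6 (−1.33). COL6A1 fell short of 1.3-fold (0.37) without the 3 knockdown libraries that stood apart in epithelial markers (FADU normoxia replicate 1 and replicate 1 of METTL4-si in FADU, replicate 2 of METTL4-si in BFTC-909), and the other 10 stayed past 1.3-fold there. That fit leaves 1 library in each of the 3 groups concerned, so its calls are not given here, though the totals of alternatives include them. For METTL4-si, it was more positive in BFTC-909 for COL4A6 (1.33), COL6A2 (0.68), COL12A1 (0.61) and COL4A5 (0.49), and more negative for COL1A1 (−1.0), COL16A1 (−0.90), COL4A1 (−0.74) and COL4A2 (−0.49). Without those 3 libraries together, the fold changes of all 8 stayed past 1.3-fold. COL6A2 lost its call in 8 of 16 alternatives, among them the fit without BFTC-909 METTL4-si replicate 2 alone (0.58). COL12A1 lost it in 3 of the 16, COL4A5 in 2 and COL4A2 in 1 (without FADU METTL4-si replicate 2, −0.37). METTL4 RNA was not detectably lower in the METTL4-si libraries of FADU, and the lines were each normalised as a table of their own, so line and table cannot be told apart.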

How the results depend on the processing

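Of 87 calls of a collagen in a comparison, 58 held under every alternative other than the 2-fold minimum. Over 1326 recomputed values 1240 kept their direction and side of the threshold, 86 kept the direction only and 0 reversed. These totals, and the numbers of alternatives given for single genes, include the fits that left out together the libraries that stood apart. Only genes already called were recomputed. Dropping the filter, the trend or a library of a group not compared, and adding the replicate block, leave the fold change as it was. Those settings could not reverse a direction. For the 2-fold, pseudocount, mean and centring settings, only counts well away from the main ones are given, so a direction left out is not 0. At 2-fold, FADU hypoxia had 1 risen and 1 fallen, FADU METTL4-si 1 fallen, BFTC-909 hypoxia 8 risen, BFTC-909 METTL4-si 2 risen and 2 fallen, each overexpression 2 risen and 0 fallen, the METTL4-si difference between lines 1 and 1, and the mutant clones 0 and 0. A pseudocount of 5 gave 2 risen with METTL4-si in BFTC-909, 1 fallen with METTL4-OE, 4 risen with RP11-390F4.3-OE, and 0 higher and 3 lower in the clones. With a mean of 5 or more, 2 fell in BFTC-909 hypoxia, 3 rose with METTL4-si there, 2 fell with METTL4-OE and 3 rose with RP11-390F4.3-OE, as fewer genes were tested. Centring each library on its median left 3 risen with METTL4-si in BFTC-909. By edgeR on recovered reads the counts risen and fallen were 6 and 3 (FADU hypoxia), 4 and 4 (FADU METTL4-si), 16 and 4, 5 and 4 (BFTC-909), 9 and 5 (METTL4-OE), and 7 and 3 (RP11-390F4.3-OE). Leaving out 1 library at a time gave 0 to 5 risen and 1 to 4 fallen in FADU hypoxia, 3 to 6 and 1 to 6 with METTL4-si, 15 to 17 and 3 to 4 in BFTC-909 hypoxia, 3 to 9 and 4 to 5 with METTL4-si, 8 to 9 and 4 to 5 with METTL4-OE, 6 to 7 and 3 with RP11-390F4.3-OE, and for the differences between lines 7 to 10 and 3 (hypoxia) and 1 to 5 and 4 to 5 (METTL4-si). A group left with 1 library was assumed to vary like the others, and the cause of these changes was not tested. A replicate block left 5 risen and 4 fallen in FADU hypoxia and changed no call of the 87. Same-numbered libraries deviated together only between FADU normoxia and METTL4-si (correlation 0.65, the 2 libraries that stood apart by TFF1, others −0.065 to 0.15), so the numbers were not treated as pairs. For the differences between lines, leaving out libraries and the block were chosen after seeing the data. Lower collagens rest on fewer reads, and their values carry more counting error.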
